A study of Mus musculus with 2 samples.

Results

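Newly made secretory and membrane proteins fold inside the endoplasmic reticulum (ER). The genes described here are 40 mouse genes of that machinery: chaperones, protein disulphide isomerases and their oxidases, J proteins, the degradation pathway for misfolded proteins, the ER stress sensors, and the translocon through which chains enter. They were chosen by their known function, at a time when the expression ratios of these same libraries were already known, so every ratio below is a description of them and none has a test. All 40 were found among 45318 genes of the deposited count table, under the older symbols Ero1l and Ero1lb for the oxidases now called Ero1a and Ero1b, and 39 passed the filter of a mean over both libraries of 1 CPM or more (CPM, counts scaled to a common library size), as did 11504 genes in all. Derl3 did not pass.

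The samples were GFP-positive leukaemia cells sorted from the bone marrow of leukaemic C57Bl/6 mice, and every library carried MLL/AF9, the product of a chromosomal fusion that drives acute myeloid leukaemia. The brequinar library came from treatment with brequinar, which blocks dihydroorotate dehydrogenase (Dhodh) and with it the making of new pyrimidines, and the vehicle library from treatment with vehicle alone. There was 1 poly(A)-selected RNA library per treatment, so no difference has a replicate check and no p-value can be given. The sources used here do not state the dose, the treatment time, the age and number of animals or the number of leukaemia clones.

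Client proteins enter the ER through the Sec61 channel and meet Hspa5 (BiP), the Hsp70 of the ER, and the lectin chaperones calnexin and calreticulin. Protein disulphide isomerases form and shuffle disulphide bonds, and the Ero1 oxidases recharge them. Proteins that fail to fold are sent back to the cytosol and degraded, and an excess of them activates the unfolded protein response, in which the sensors Ern1 (IRE1), Atf6 and Eif2ak3 (PERK) induce many of these same genes. Immature myeloid cells make large amounts of granule proteins such as myeloperoxidase, which fold in this compartment and bind calreticulin and calnexin.

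Gene counts summed to 47950714 in the brequinar library and 47935476 in the vehicle library. A single count was worth 0.0215 and 0.0202 CPM there, after scaling by trimmed mean of M values (TMM). The 8 genes of myeloid and leukaemic identity that were looked at were all expressed, 2 of them at least 1.5-fold higher with brequinar and 2 lower. Both libraries are labelled as leukaemia cells, so this does not tell such cells from normal myeloid cells. Hoxa9 stood at 231 and 238 CPM, Kit at 76.5 and 180.3 CPM, and Itgam, the CD11b integrin of maturing myeloid cells, at 1234 and 399 CPM in the brequinar and vehicle libraries. Dhodh, the gene of the inhibited enzyme, stood at 26.3 and 37.5 CPM. That gene was not deleted, so it does not check the labels.

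Most of these genes had a lower level in the brequinar library, the majority by less than 1.5-fold. Of the 39 genes, 34 had a log2 ratio of brequinar over vehicle below 0, and the median log2 ratio was -0.30, beside 0.00 over all 11504 genes. At least 1.5-fold lower were 10 of the 39 and at least 1.5-fold higher 0, while over all genes 12.7% were lower and 12.7% higher by that rule. At least 2-fold lower were 2 of the 39 and at least 2-fold higher 0, beside 4.4% and 6.45% of all genes. Because the genes were chosen with these ratios known, nothing is read from the shares. The 10 genes were Txndc5, Pdia5, Calr, Pdia4, Pdia6, Dnajc10, Sdf2l1, Manf, Hyou1 and Ssr4, that is, 4 disulphide isomerases, 4 chaperones or their co-factors, 1 J protein and 1 translocon subunit. No gene listed here under degradation or sensors was among them, with Dnajc10 listed as a J protein. Nearest to the limit were Ssr4 and Hyou1 inside it, both at a log2 ratio of -0.66, and Edem1 (0.57) and Txndc11 (-0.53) outside it.

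Summed over all 40 genes, the level was 8964 CPM in the brequinar library and 11888 CPM in the vehicle library, a 1.33-fold difference. Calr alone made up 37.2% of the difference, and the 5 genes with the largest difference in CPM (Calr, P4hb, Pdia6, Hspa5 and Canx) made up 69.3%. Without Calr the sums were 7751 and 9587 CPM, so the total was still 1.24-fold lower. In bulk RNA of sorted cells, fewer cells that express a gene and less of its RNA per cell cannot be told apart.

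Counting error was small beside most of these differences. The exact 95% interval of the ratio, which covers counting error only, lay wholly below 1 for 32 of the 39 genes and wholly above 1 for 2, Edem1 and Derl2. It held 1 for Hsp90b1, Txndc12, Ero1l, Dnajb11 and Edem3. Over all genes 37.7% had an interval wholly below 1 and 39.2% one wholly above 1, so at this depth a counting interval that leaves out 1 is common. Reads were amplified without molecular identifiers, so several can come from 1 molecule, and animals and sorts add spread that these intervals do not hold. Nor do they hold the choice of processing. Log2 ratios of single genes were recomputed under other scalings, prior counts and a correction, and 93 of 273 fell outside the interval of their gene.

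**Figure D1:**
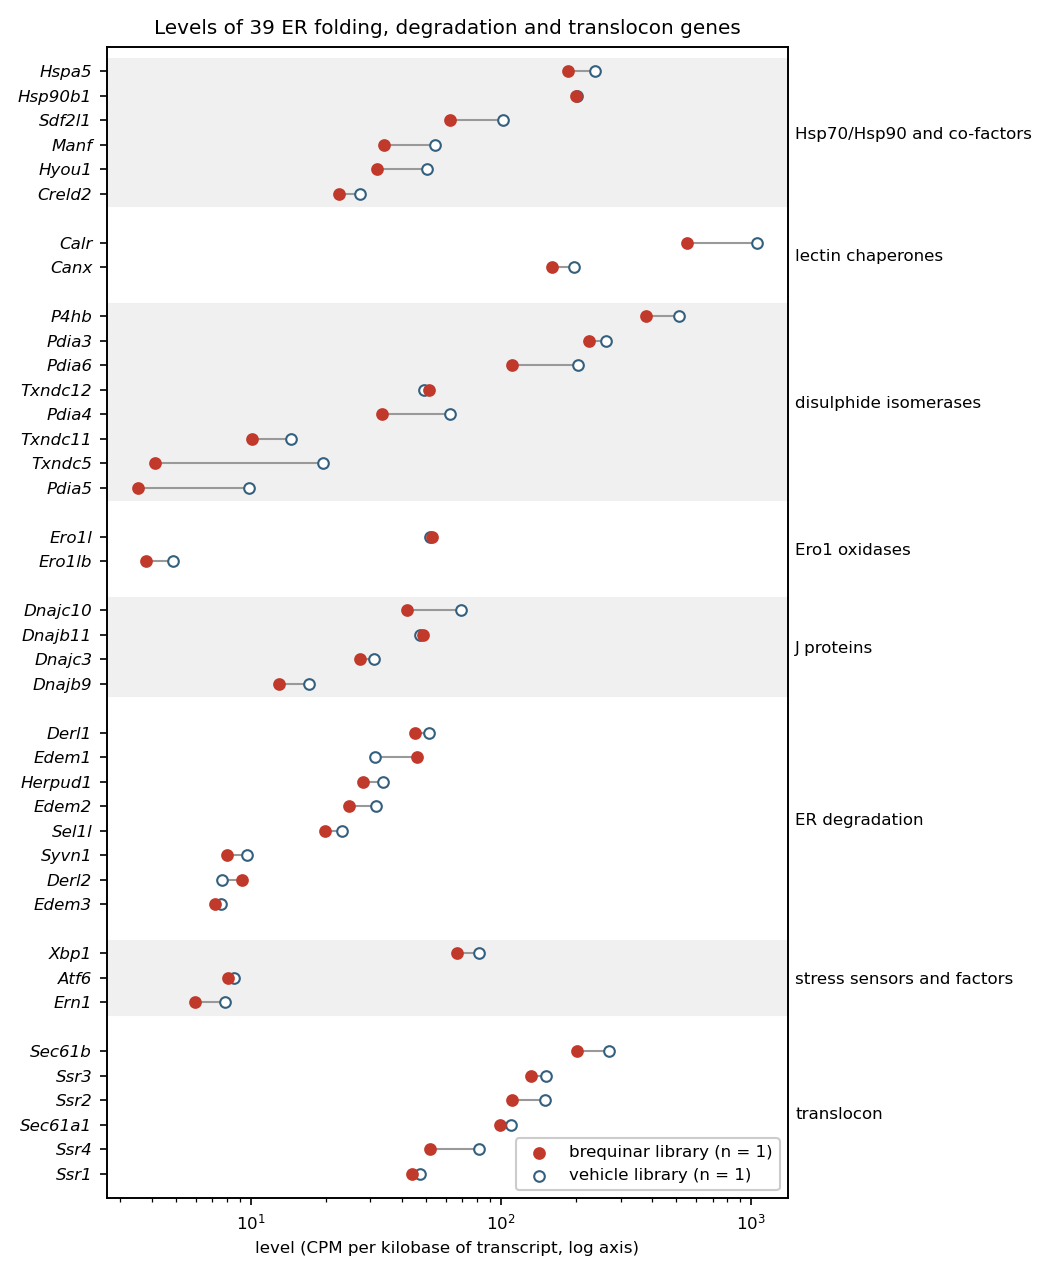
Level of each of the 39 genes in CPM per kilobase of its longest annotated transcript (log axis), grouped by role, with the brequinar library as filled red points and the vehicle library as open blue points, 1 library each. Calr is the highest gene in both libraries (555 and 1053 CPM per kilobase), and Txndc5 shows the widest gap (4.13 and 19.3).

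Levels between genes are compared per kilobase of each gene's longest annotated transcript, which need not be the form these cells use. On that scale Calr ranked first and P4hb second of the 40 in both libraries, and Derl3 ranked last. Of the 40 genes, 11 in the brequinar library and 16 in the vehicle library lay in the top 10% of 10535 protein-coding genes. The 5 that left that range were Pdia4, Dnajc10, Sdf2l1, Ssr4 and Xbp1.

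Among the chaperones of the Hsp70 and Hsp90 families and their co-factors, all 6 genes had ratios below 0, with a median log2 ratio of -0.51, and 3 were at least 1.5-fold lower. Hspa5, the BiP chaperone that also holds the stress sensors inactive, stood at 678 CPM in the brequinar library and 870.1 CPM in the vehicle library, 1.28-fold lower (interval 1.26 to 1.30). Hsp90b1, the ER Hsp90 (Grp94), stood at 640.3 and 648 CPM, and its interval held equal levels with TMM scaling. Its log2 ratio of -0.02 became -0.11 with total-count scaling and -0.13 after correction for length and GC content, both outside that interval. The most abundant pair of this group, per kilobase as well, thus differed less between libraries than Hyou1, Sdf2l1 and Manf did.

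Hyou1, an Hsp70 relative that exchanges nucleotide on BiP, stood at 157.6 CPM with brequinar and 248.7 CPM with vehicle. Sdf2l1, a component of the BiP and J protein cycle, stood at 69.3 and 113 CPM. Manf, a small ER protein that binds BiP, stood at 76.7 and 122 CPM, and its exons overlap those of Dcaf1 on the opposite strand (2142 and 3183 counts). These co-factors were 1.58-fold (interval 1.53 to 1.62), 1.63-fold (1.56 to 1.70) and 1.59-fold (1.53 to 1.66) lower. Creld2, an ER protein induced by stress, stood at 30.7 and 37.2 CPM, which is 1.21-fold lower (interval 1.13 to 1.30). The level of Hspa5 over that of Hyou1, per kilobase, was 5.77 in the brequinar library and 4.69 in the vehicle library.

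The lectin chaperones hold glycoproteins through their sugar chains. Calr, soluble calreticulin, was 1.90-fold lower (interval 1.88 to 1.92), at 1213 CPM with brequinar and 2300.4 CPM with vehicle. Canx, membrane-bound calnexin, was 1.23-fold lower (interval 1.22 to 1.25), at 680.6 and 839.8 CPM. Per kilobase, Calr stood at 3.49 times Canx in the brequinar library and 5.37 times Canx in the vehicle library.

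The disulphide isomerases differed most, with a median log2 ratio of -0.71 over 8 genes, of which 7 had ratios below 0 and 4 were at least 1.5-fold lower. Txndc5 (ERp46), a fast-acting isomerase with several thioredoxin domains, stood at 11.8 CPM in the brequinar library and 54.97 CPM in the vehicle library. It was 4.68-fold lower (interval 4.26 to 5.14), the largest ratio among the 39 genes, and rested on 546 and 2720 counts. On GRCm38 it lies on the minus strand of chromosome 13, from 38500079 to 38528824. Its exons overlap Bmp6 and a long noncoding RNA gene on the opposite strand, and Bmp6 itself had 2 and 1 counts.

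Pdia5, a less studied isomerase of the family, stood at 6.37 CPM with brequinar and 17.7 CPM with vehicle, 2.78-fold lower (interval 2.44 to 3.18), from 296 and 877 counts. Pdia4 (ERp72) stood at 80.3 and 149.4 CPM, 1.86-fold lower (interval 1.79 to 1.94). Pdia6 (P5), which also attenuates the sensor Ern1, stood at 239.9 and 442 CPM, 1.84-fold lower (interval 1.80 to 1.89). Txndc5, Pdia5, Pdia4 and Pdia6 therefore lay outside 1.5-fold with their whole interval, and P4hb, the most abundant of the family per kilobase, was not among them.

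P4hb, the classical protein disulphide isomerase, stood at 1087 CPM in the brequinar library and 1472 CPM in the vehicle library, 1.35-fold lower (interval 1.34 to 1.37). Pdia3 (ERp57), which works with calreticulin and calnexin on glycoproteins, stood at 623 and 728 CPM, 1.17-fold lower (interval 1.15 to 1.19). Txndc11, a membrane-bound thioredoxin-domain protein, stood at 42.6 and 61.6 CPM, 1.44-fold lower (interval 1.36 to 1.53), just short of 1.5-fold. Txndc12 (ERp18) stood at 70.2 and 66.9 CPM, with an interval that held equal levels and a sign that turned with total-count scaling. The 8 isomerases therefore ran from 1.05-fold higher for Txndc12 to 4.68-fold lower for Txndc5. Txndc5 stood at 0.0109 times the level of P4hb per kilobase in the brequinar library and 0.0376 times in the vehicle library.

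Neither oxidase was called at 1.5-fold. Among the isomerases P4hb, Pdia3, Txndc11 and Txndc12 were within that limit too. Ero1l, the main Ero1 oxidase, stood at 233 CPM with brequinar and 228 CPM with vehicle. Its sign turned negative with scaling by total counts, by upper quartile and by totals without the most abundant genes, and after correction for length and GC content. Ero1lb, the second oxidase, stood at 16.1 and 20.7 CPM, 1.28-fold lower (interval 1.17 to 1.41). Per kilobase P4hb stood at 7.20 times Ero1l in the brequinar library and 9.95 times Ero1l in the vehicle library.

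J proteins deliver clients to BiP and start its ATPase. Of 4 genes 3 had ratios below 0, with a median log2 ratio of -0.30 and 1 gene at least 1.5-fold lower. That gene was Dnajc10 (ERdj5), a J protein with thioredoxin domains that reduces disulphides before degradation, which stood at 170.3 CPM with brequinar and 279.7 CPM with vehicle, 1.64-fold lower (interval 1.60 to 1.69). Dnajb9 (ERdj4), which binds the sensor Ern1 with BiP, stood at 31.7 and 42.1 CPM, 1.33-fold lower (interval 1.24 to 1.42). Dnajc3 (p58IPK) stood at 140.2 and 159 CPM. Dnajb11 (ERdj3), which assists folding, stood at 122.6 and 119 CPM, and its sign turned with total-count scaling. Dnajc10, which carries the thioredoxin fold of the isomerases, was thus the J protein furthest from equal levels.

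The degradation genes included the 2 whose whole interval lay above 1. Of 9 genes, 8 passed the filter, none was called at 1.5-fold in either direction, and 2 were above 0. Their median log2 ratio was -0.21, their mean -0.07, and their summed level 777 CPM in the brequinar library and 758 CPM in the vehicle library. Edem1, a lectin that hands mannose-trimmed glycoproteins to degradation, stood at 281 and 189.3 CPM. It was 1.48-fold higher (interval 1.44 to 1.52), the highest ratio of the 39 genes, and lay just within 1.5-fold on the log2 scale, at 0.57. Its relatives did not share this. Edem2, which starts mannose trimming, stood at 56.5 and 72.5 CPM, 1.28-fold lower (interval 1.22 to 1.35), and Edem3 stood at 45.4 and 47.8 CPM with an interval that held equal levels. Per kilobase Edem1 stood at 1.87 times Edem2 with brequinar and at 0.984 times Edem2 with vehicle.

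Derlins are membrane proteins of the exit channel. Derl2 was 1.20-fold higher (interval 1.12 to 1.28), at 40.1 CPM with brequinar and 33.4 CPM with vehicle, and Derl1 was 1.15-fold lower (interval 1.11 to 1.18), at 142.9 and 163.8 CPM. Exons of Derl2 overlap Mis12 on the opposite strand, a gene with 3322 and 2797 counts, and whether the counting used strand is not stated. Derl3, a derlin typical of highly secretory cells, had 0 counts in the brequinar library, which allows up to 0.0646 CPM, and 4 counts (0.0808 CPM) in the vehicle library, so no ratio is given. Sel1l and Syvn1 (Hrd1), the core of the main ubiquitin ligase, were lower too, with 124.1 CPM of Sel1l under brequinar and 145.8 CPM under vehicle, and 32.7 and 39.3 CPM of Syvn1. Herpud1, a stress-induced organiser of that ligase, stood at 54.8 and 65.98 CPM. These 3 were 1.18-fold (interval 1.13 to 1.22), 1.20-fold (1.12 to 1.29) and 1.20-fold (1.14 to 1.27) lower, so the ligase subunits differed by about the same factor.

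The sensors and Xbp1 had ratios below 0 and within 1.5-fold. Xbp1, the transcription factor activated when Ern1 splices its RNA, stood at 141.7 CPM with brequinar and 173.5 CPM with vehicle, 1.22-fold lower (interval 1.19 to 1.26). Counts per gene do not tell its spliced form from the unspliced one. Ern1 stood at 41.6 and 54.7 CPM, 1.32-fold lower (interval 1.24 to 1.40), and Atf6 at 58.4 and 61.96 CPM, 1.06-fold lower (interval 1.01 to 1.12). The median log2 ratio of the 3 was -0.29, each was below 0, and none was called. Eif2ak3 (PERK), the third sensor, is not among the 40 genes and stood at 31.8 and 41.9 CPM, 1.32-fold lower (interval 1.23 to 1.41).

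The 6 translocon genes all had ratios below 0, with a median log2 ratio of -0.31. Sec61a1, the channel itself, stood at 312.8 CPM with brequinar and 348.4 CPM with vehicle, and Sec61b, its small partner, at 145 and 194.5 CPM. Ssr1 to Ssr4 encode the 4 subunits of the translocon-associated complex, which stand together in the membrane. Ssr4 was the member at least 1.5-fold lower, at 133 and 209.98 CPM (1.58-fold, interval 1.53 to 1.63). Ssr2 stood at 131.4 and 178.7 CPM, Ssr3 at 391 and 445.8 CPM, and Ssr1 at 409.6 and 440.4 CPM. These 4 subunits thus differed unequally, from 1.08-fold lower for Ssr1 (interval 1.05 to 1.10) to 1.58-fold lower for Ssr4. After correction for length and GC content the median was -0.23. Sec61b then had a log2 ratio of -0.13 instead of -0.42, close to Sec61a1 (-0.12). Ssr2 moved toward 0 as well (-0.44 to -0.27), and Ssr1 and Ssr3 moved away from it.

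**Figure D2:**
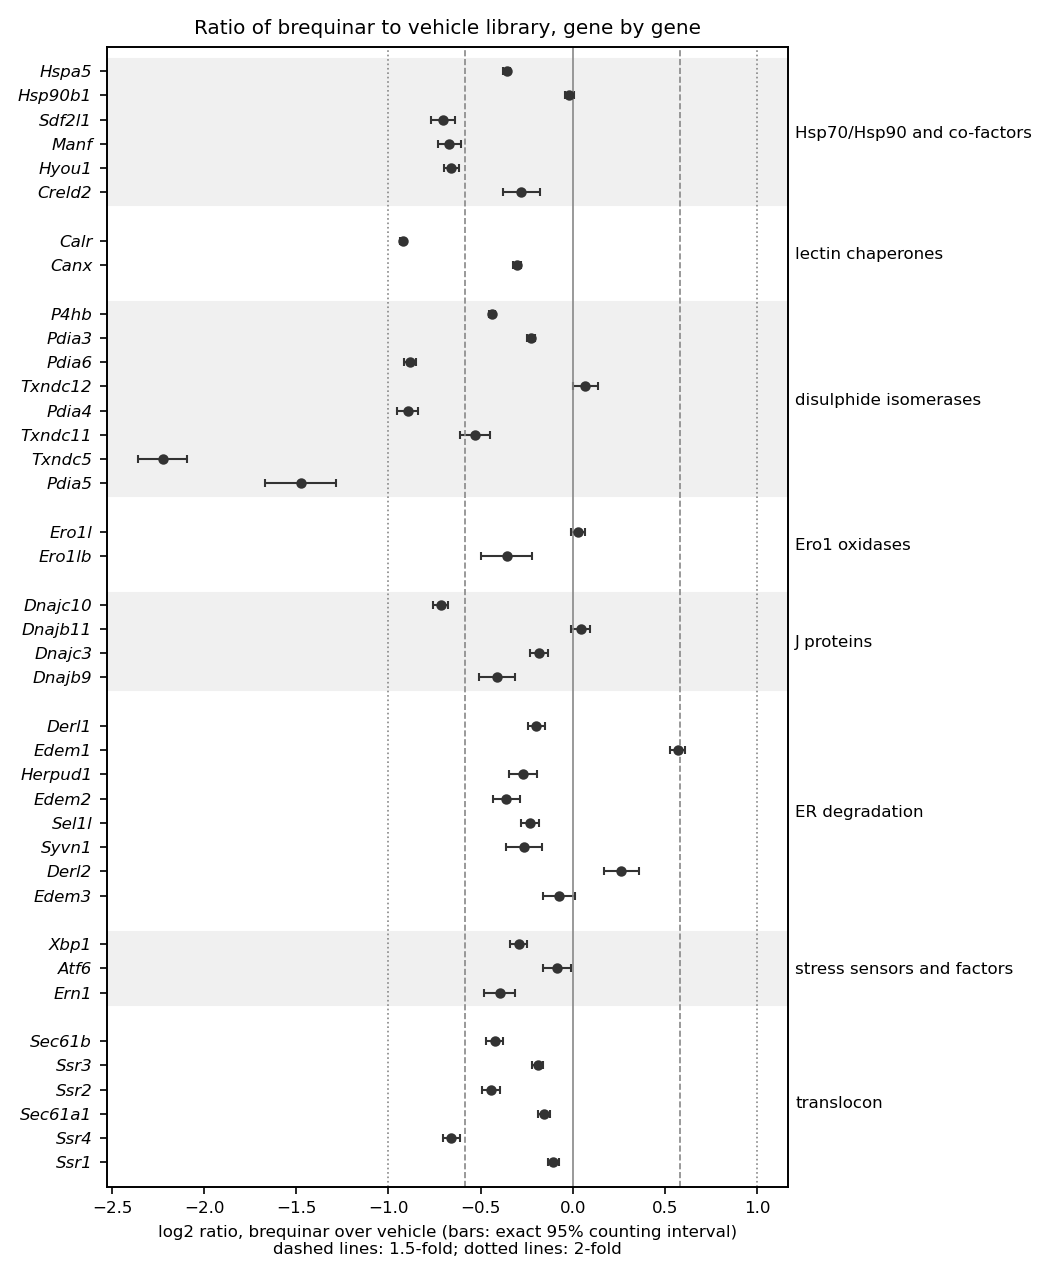
Log2 ratio of the brequinar over the vehicle library for each of the 39 genes, grouped by role, without a prior count; bars are exact 95% counting intervals, dashed lines mark 1.5-fold and dotted lines 2-fold. Txndc5 and Pdia5 lie beyond 2-fold on the lower side, and Edem1 (0.57) and Derl2 (0.26) are the genes whose whole interval lies above 0.

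The promoters were searched for known elements of the stress response. The ER stress response element, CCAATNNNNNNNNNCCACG, is the site at which Atf6 acts together with NF-Y during ER stress. It was searched on both strands of the RefSeq promoter windows (GRCm38.p6, 250 bases before to 50 after each transcript start), which were given for 34 of the 40 genes. It was found in 10 of the 34 (29.4%), against 37 of 27025 genes in all (0.137%). The element is known from promoters of such chaperone genes, Hspa5 among them, so these shares are not independent of the choice of genes. A match is a description of letters and not evidence of binding. The matches of Hspa5, of the lectin chaperones and of the isomerase Pdia6 are shown with the others because they let the fixed ends and the free spacer be compared. Capitals mark the fixed CCAAT and CCACG, and each is written along its own strand.
Hspa5, chr2:34772025-34772043, plus strand: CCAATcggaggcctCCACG
Calr, chr8:84847075-84847093, plus strand: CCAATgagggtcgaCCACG
Canx, chr11:50325800-50325818, minus strand: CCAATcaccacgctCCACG
Pdia6, chr12:17266491-17266509, plus strand: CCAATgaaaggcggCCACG
Hsp90b1, chr10:86705638-86705656, minus strand: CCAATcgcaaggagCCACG
Hsp90b1, chr10:86705533-86705551, plus strand: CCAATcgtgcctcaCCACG
Dnajc3, chr14:118937827-118937845, plus strand: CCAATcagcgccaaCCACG
Ero1lb, chr13:12565682-12565700, minus strand: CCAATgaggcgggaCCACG
Creld2, chr15:88819520-88819538, minus strand: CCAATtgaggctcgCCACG
Syvn1, chr19:6046532-6046550, plus strand: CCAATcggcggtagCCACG
Derl3, chr10:75893242-75893260, minus strand: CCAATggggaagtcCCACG

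Hsp90b1 carries 2 of these elements and the others 1 each. A second form of the element, ATTGGNCCACG, was added to the search later and was found in Herpud1 and Dnajb11, against 12 of 27025 genes (0.0444%). It shares the CCACG end with the first form, and no window above held both forms.
Herpud1, chr8:94386377-94386387, plus strand: ATTGGgCCACG
Dnajb11, chr16:22857852-22857862, plus strand: ATTGGcCCACG

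The ratios of genes with and without a match to an ER stress response element overlapped, and the difference between them was not tested. No window was given for Hyou1, Manf, Derl1, Atf6, Sec61a1 and Ssr2, so they are in neither group. Of these, Hyou1 and Manf were at least 1.5-fold lower. Among the 33 genes with a window that passed the filter, the 11 with an element of either form had a median log2 ratio of -0.28, from -0.92 for Calr to 0.04 for Dnajb11, with 10 below 0 and 2 at least 1.5-fold lower. All 9 with the first form were below 0. The 22 without a match to either form in the window had a median of -0.38, from -2.22 for Txndc5 to 0.57 for Edem1. Of these 18 were below 0 and 6 at least 1.5-fold lower. They include Txndc5 and Txndc11, which hold a different stress element, given below. Outside the list, 27 genes carried the first form, of which 5 passed the filter, 2 with ratios below 0 and 3 above. These were Acacb, Adcy3, Alg12, Hnrnpa3 and Pan2, with log2 ratios of -0.75, 1.08, -0.14, 0.38 and 0.07.

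Calr and Canx show how genes with the same element and related products can differ. The 250 bases before the start of each are given in the direction of the gene, with the element in capitals. In Calr it lies on the opposite strand, and so reads CGTGG to ATTGG, beginning 162 bases before the start; in Canx it lies on the same strand, 145 bases before it.
Calr, chr8:84846932-84847181, minus strand: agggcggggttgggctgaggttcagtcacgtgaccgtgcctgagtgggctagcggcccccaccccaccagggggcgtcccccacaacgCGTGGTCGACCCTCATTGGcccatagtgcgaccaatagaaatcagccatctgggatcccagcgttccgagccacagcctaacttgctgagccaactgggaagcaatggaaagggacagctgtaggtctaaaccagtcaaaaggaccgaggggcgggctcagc
Canx, chr11:50325674-50325923, minus strand: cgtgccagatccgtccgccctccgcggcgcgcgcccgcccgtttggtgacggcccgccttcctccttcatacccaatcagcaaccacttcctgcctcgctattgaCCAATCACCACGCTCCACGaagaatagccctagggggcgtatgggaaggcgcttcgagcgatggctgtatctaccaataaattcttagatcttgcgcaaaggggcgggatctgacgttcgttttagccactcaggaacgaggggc
Both windows hold the element once, and Calr was 1.90-fold lower where Canx was 1.23-fold lower.

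The core of the unfolded protein response element, TGACGTGG, to which spliced Xbp1 and Atf6 bind, was found in the windows of Txndc5 and Txndc11, that is, 2 of 34 genes (5.88%), against 0.714% of all genes. Txndc5 has 3 annotated starts with a window, and the match lies in the window of the start furthest downstream. Both stretches are shown with 10 bases on each side and the core in capitals, since Txndc5 had the largest ratio of the 39 genes.
Txndc5, chr13:38528035-38528062, minus strand: gcctcgccgcTGACGTGGcgctagccgc
Txndc11, chr16:11134617-11134644, minus strand: gaagtgtggcTGACGTGGagagtccggg
The core of the amino acid response element at which Atf4 acts, TGATGCAA, was found in Herpud1 alone (2.94% of the 34), against 1.03% of all genes.

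**Figure D3:**
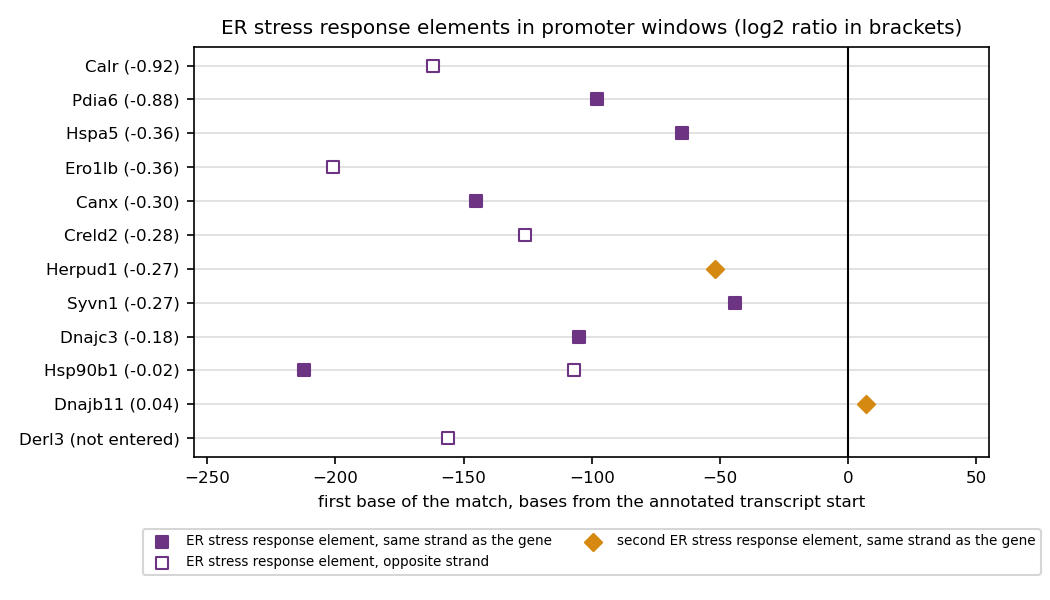
Position of each ER stress response element in the promoter windows, as the distance in bases of its first base from the annotated RefSeq transcript start, for the 12 genes that hold one; filled symbols lie on the strand of the gene, open symbols on the opposite strand, and diamonds mark the second form. Genes are ordered by log2 ratio (brequinar over vehicle, in brackets), from Calr (-0.92) to Dnajb11 (0.04), with Derl3, which did not pass the filter, last.

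Around these 40 genes, 112 further genes of the pathway were examined in 8 lists, of which 104 passed the filter. They had a median log2 ratio of -0.10, with 11 at least 1.5-fold lower and 1 at least 1.5-fold higher. Over all genes 12.7% were lower and 12.7% higher by that rule, and nothing is read from the counts of these lists. Genes of glycan-based quality control were the lists' lowest by median, at -0.45, with 10 of 10 below 0 and 2 at least 1.5-fold lower. Prkcsh, the non-catalytic subunit of glucosidase II, which trims sugars for calnexin binding, stood at 119 CPM with brequinar and 200.2 CPM with vehicle. Uggt2, a relative of the glucosyltransferase that senses misfolded glycoproteins, stood at 2.78 and 4.28 CPM.

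Other ER folding enzymes had a median of -0.24 over 16 genes, with 5 at least 1.5-fold lower and 0 higher. Fkbp11, a prolyl isomerase of secretory cells, stood at 5.92 CPM with brequinar and 11.2 CPM with vehicle. Erp29, a thioredoxin-fold protein without the active site cysteines, stood at 165 and 311 CPM. Sil1, a nucleotide exchange factor of BiP, stood at 21 and 35.7 CPM. Sdf2 stood at 33.1 and 54.4 CPM, and its relative Sdf2l1 was lower as well, as given above.

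All 11 genes of the oligosaccharyltransferase, which attaches the sugar chains, had ratios below 0, with a median of -0.22 (10 of 11 after the length and GC correction). Rpn1, a subunit that presents substrates, was the 1 gene at least 1.5-fold lower, at 393 and 609.6 CPM. Other translocation and signal peptide genes had a median of -0.11 over 17 genes with 0 called, and their largest ratios were those of Srpr, the signal recognition particle receptor (89.5 and 116 CPM), and Sec61a2 (4.59 and 5.90 CPM).

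Genes of degradation outside the list had mostly ratios above 0. Of 16, 14 did so, with a median of 0.09 and 0 called, but with total-count scaling 8 were above 0 and the median was 0.00. Ube2j1, the conjugating enzyme of ER degradation, stood at 111 CPM with brequinar and 74.7 CPM with vehicle, and Ngly1, which strips sugars from retrotranslocated proteins, at 42 and 28.7 CPM. Genes of ER to Golgi transport had a median of 0.01 over 16 genes with 0 called, and that sign turned with total-count scaling (-0.08). Lman2, a cargo lectin, stood at 207 and 264 CPM, and Sec24b, a coat subunit, at 50.2 and 41.4 CPM.

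The PERK arm gave 1 gene higher and 1 lower among 6. Atf3, a stress-induced factor, stood at 2.50 CPM with brequinar and 1.17 CPM with vehicle, and Ppp1r15a (Gadd34), which restores translation, at 17.2 and 28.2 CPM. Its median was -0.10 and its mean 0.03, so the sign depended on the summary. Ddit3 (Chop) stood at 7.53 and 8.18 CPM. Among 12 genes of sensor processing and related factors the median was 0.02, whose sign turned with total-count scaling (-0.07), with 2 genes at least 1.5-fold lower. Bhlha15 (Mist1), a factor of professional secretory cells, stood at 0.603 and 1.54 CPM, and Creb3l2 at 10.2 and 16.8 CPM.

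**Figure D4:**
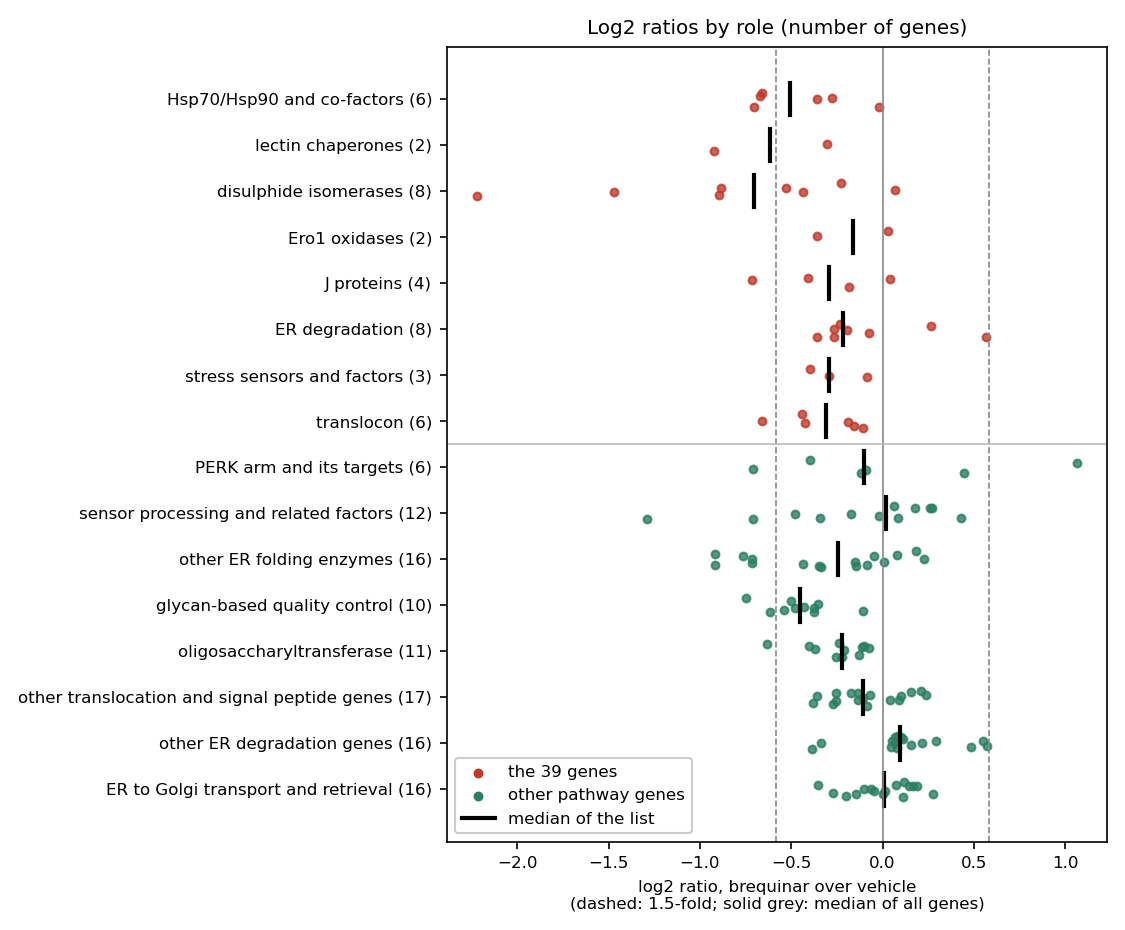
Log2 ratio of the brequinar over the vehicle library for each gene, by role, for the 39 genes (red, 8 roles above the line) and 104 other genes of the pathway (green, 8 lists below it); black bars are medians, the grey line is the median of all genes and dashed lines mark 1.5-fold. Disulphide isomerases have the lowest median (-0.71) and degradation genes outside the list the highest (0.09, or 0.00 with total-count scaling).

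Genes of granule cargo and markers of other cells differed between the same libraries, and their part in the results above was not tested. Genes of primary granule cargo, whose share of the folding load was not measured, had a median log2 ratio of -0.79, with 5 of 8 measured genes at least 1.5-fold lower and 1 higher. Their summed level was 6837 CPM in the brequinar library and 15878 CPM in the vehicle library. Mpo was 6.04-fold lower (979 and 5912 CPM), and Elane stood at 1702 and 3098 CPM.

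Plasma and B cell markers, of interest because plasma cells express many ER genes strongly, summed to 22.6 CPM with brequinar and 36.9 CPM with vehicle over 12 genes. Of these 6 passed the filter, 3 with ratios above 0 and 3 below, with a median log2 ratio of 0.10, and 2 were at least 1.5-fold lower. Cd79b (9.86 and 26.2 CPM) was the highest of the 12 in both libraries, and the difference between the sums rests on it. The plasma cell genes Jchain, Sdc1 and Prdm1 stood at 1.59 and 2.83 CPM, 0.495 and 0.141 CPM, and 0.108 and 0.101 CPM. Tnfrsf17 stood at 0.0431 CPM in the brequinar library and had 0 counts in the vehicle library. Of the plasma cell genes named here, Prdm1 and Tnfrsf17 were near 0 in both libraries, and Jchain was the highest at 2.83 CPM. None of the 3 genes with ratios above 0 that passed the filter is named, so the named genes do not stand for the list. Mzb1 and Irf4, also in the list, are not given here.

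Erythroid markers summed to 289.5 CPM with brequinar and 83.1 CPM with vehicle over 12 genes, with 11 of 11 measured genes at least 2-fold higher, and macrophage markers to 787 and 598 CPM over 9 genes, with 6 of 8 at least 2-fold higher. The log2 ratios of these 8 macrophage markers ran from 0.03 to 3.87 with a median of 2.99, so the sums do not describe the single markers. Megakaryocyte markers summed to 102.3 and 17.6 CPM over 6 genes, with 3 of 3 higher and Ppbp and Gp1ba at 0 in the vehicle library. Markers of eosinophils, basophils and mast cells summed to 84.6 and 99.6 CPM over 8 genes. Of the 7 that passed the filter, 5 had ratios above 0 and 2 below, with a median log2 ratio of 0.16. T and NK cell markers summed to 10.2 and 23.1 CPM over 8 genes, and stromal markers to 9.64 and 27.1 CPM over 6. In each of these last lists only 1 gene passed the filter, at 7.45 and 22.0 CPM and at 6.76 and 25.1 CPM, so each sum rests mostly on 1 gene.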

How the data were processed

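Per the labels' protocols, poly(A) RNA gave libraries that keep the strand, sequenced from both ends with 101 bases each. STAR 2.4.2a, Picard 1.99 and 2.2.4 and build mm10 are named in the submitters' processing notes. Which program counted the reads, whether it used strand, and on which annotation, is not stated in the sources used here. The deposited values are raw counts of reads per gene, not normalised by the authors. The 4 closing lines that name no gene held 20.2% of all reads in the brequinar library and 21.6% in the vehicle library and were left out. Multimapping reads (6.92% and 7.39%) are among them, so genes with near-identical copies can be undercounted.

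TMM scaling (factors 0.969 for brequinar and 1.03 for vehicle) was done in edgeR 4.0.16 under R 4.3.3. Log2 ratios of brequinar over vehicle used a prior count of 2, for genes whose mean reached 1 CPM. Fold differences with intervals are ratios of CPM without a prior count. Intervals are exact (Clopper-Pearson, 95%), given the summed count. The floor for 0 counts was 3 counts. With 1 library per group no test was made: a gene was called at 1.5-fold, or more strictly at 2-fold. Symbols, lengths and coordinates came from GENCODE mouse release 21 (GRCm38) and promoters from RefSeq (GRCm38.p6). Exons of 12 of the 40 genes overlap another annotated gene.

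The members and lists were chosen with earlier results of these data known. Named from the other pathway lists were up to 4 genes past 1.5-fold by absolute log2 ratio, or the 2 largest where none passed. Dhodh, Mpo and Elane were named as well. The rule was not carried through for the marker lists, which are given mainly as sums. Kit, Itgam, Cd79b and Jchain are named from them, and many other marker genes past 1.5-fold are not. Outside the rule, and chosen after their values were seen, are Hoxa9, Ddit3, Eif2ak3, Sdc1, Prdm1, Tnfrsf17, Ppbp, Gp1ba, the overlapping genes and the 5 genes with an element. Protein sequences were not used here. The procedure was run on simulated counts that held counting error only, so the run says nothing about spread between animals or sorts. Other scalings were tried, including the size factors of DESeq2 1.42.0, and other filters, prior counts, call rules, and a lowess correction for length and GC content (span 0.3).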

Additional observations from a re-analysis of the deposited data

How the results depend on the processing

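No paired analysis was possible because each treatment has 1 library, and for the same reason no library could be left out. Under the alternatives of scaling, filter, prior count, call rule and length and GC correction, the genes at least 1.5-fold lower numbered between 9 and 11, those at least 2-fold lower between 2 and 3, those higher by either rule 0, and those below 0 between 34 and 37. The length and GC correction took Sdf2l1 out of the 1.5-fold calls, and total counts, like totals that leave out mitochondrial genes and the top 50, added Txndc11. The median log2 ratio was -0.39 with total counts, -0.38 with totals without the abundant genes and -0.40 as a mean. The signs of Txndc12, Ero1l and Dnajb11, all near 0, turned with total counts. Restricting to genes without exonic overlap, chosen after seeing the data, left 6 at least 1.5-fold lower and 1 at least 2-fold lower; this drops Txndc5, Pdia4, Pdia6 and Manf by construction.

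Over all genes, total counts gave 1823 at least 1.5-fold lower and 1211 higher, against 1463 and 1456 with TMM, a shift of 0.0917 in each log2 ratio. Without a filter 4259 were at least 1.5-fold lower and 4538 higher, and 2074 and 2470 at 2-fold. A filter at 5 CPM left 871 lower at 1.5-fold, and 230 lower and 457 higher at 2-fold. With the whole interval beyond the fold 866 were lower at 1.5-fold and 288 at 2-fold. Among the 40 genes depth limits Derl3 most.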
